A study of Mus musculus with 4 samples.

Results

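The 43 genes described here encode the machinery that copies DNA and supplies it with deoxynucleotides. They were taken by symbol from a RefSeq transcript table, in which the gene symbol is the last bracketed word before a comma in each description, and their estimated counts were summed per symbol. All 43 were found, as 116 of 116415 transcripts, among 36846 symbols in all. The cells were mouse embryonic fibroblasts (MEFs), which grow out of the embryo body, on a C57BL/6 background, and RNA was sequenced for wild type (WT, 2 libraries) and Dnmt3l-KO (the knockout, 2 libraries). Both came from crosses between Dnmt3l heterozygotes, from embryos of day 13.5 to 14.5, and were at passage 4 in medium with 10% fetal bovine serum, and nothing else distinguishes the groups in the labels. Dnmt3l encodes a catalytically inactive partner of the de novo DNA methyltransferases. The study asked which genes of these donor cells might relate to the better development of cloned embryos made from knockout cells. The sources used here give neither the structure of the knockout allele nor the number of embryos behind each genotype, so that p-values measure only the spread between these libraries, which may be technical.

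Replication starts at origins, where the origin recognition complex, Cdc6 and Cdt1 load the ring-shaped MCM helicase onto DNA in G1 phase, and geminin (Gmnn) binds Cdt1 to stop reloading later in the cycle. Cdc45 and the GINS complex then join the MCM ring to make the active helicase, primase and DNA polymerases copy the strands, and the PCNA clamp, set by the RFC loader, holds the polymerases on DNA. Fibroblasts in culture divide, and transcripts of most of these genes are made mainly around the entry into S phase, under the E2F transcription factors. In bulk RNA, fewer cells in S phase and less RNA per cell cannot be told apart.

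Total counts were 40681328 to 51465395 per library, and the 43 genes took 74075 and 72591 counts in WT against 78453 and 61178 in the knockout, or 0.15% to 0.18% of each library. The lowest count of any of them in a library was 147 (Gins3) and the highest 11170 (Rrm2). Dnmt3l itself had 6 and 1 counts in WT, and 0 in both knockout libraries, too few to check the labels. All 14 fibroblast markers were above 1 CPM (counts scaled by library size) in some library, and their summed level was 20301 and 16998 CPM in WT, against 18731 and 24376 CPM in the knockout. The sums over markers of other cell types were 7.33 to 10.7 CPM for leukocytes (4 of 7 under 1 CPM throughout, Ptprc among them), 5.98 to 18.6 CPM for endothelium (mostly Kdr, with Cdh5 and Tie1 near 0) and 3.97 to 7.62 CPM for epithelium (mostly Krt18, with Krt5 and Krt14 at 0). Of the leukocyte markers, Lyz2 (2.95 to 5.07 CPM), Cd68 (1.55 to 2.32 CPM) and Csf1r (1.13 to 1.72 CPM) were above 1 CPM in each library. Skeletal muscle markers summed to 134 to 280 CPM, mostly Acta1, with Des at 16.2 to 27.1 CPM and Myod1 and Myog near 0. Neural markers summed to 54.9 to 77.1 CPM. Of these, Tubb3 (35.3 to 47.3 CPM), Map2 (10.4 to 20.1 CPM) and Sox2 (3.86 to 9.73 CPM) were detected in each library, with Gfap near 0 and Olig2 at 0. Pluripotent and germ cell markers summed to 0.212 to 0.814 CPM, and all 4 erythroid genes were at 0.

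E2F factors are known to bind DNA of the form TTTCCCGC or TTTGGCGC, and CCAAT boxes bind the factor NF-Y. RefSeq promoter windows (GRCm38.p6, 250 bases before to 50 after a start) were at hand for 35 of the 43 genes, as 41 windows; Gmnn, Mcm4, Gins1, Gins2, Gins4, Prim2, Pole and Rfc2 had none. A search of both strands found TTTCCCGC or TTTGGCGC in 11 of the 41 windows (26.8%), against 1.56% of all 32851 windows in the table and 2.71% of the 13254 windows of genes tested below. The shorter forms TTCCCGC or TTGGCGC, which are contained in the longer ones, were in 51.2% of the windows, against 6.81% of all windows and 11.7% of those of tested genes. CCAAT was in 61.0%, against 37.4% and 37.6%. The median GC content was 57.7% in the windows of the replication genes and 60.7% in those of tested genes. These shares are descriptions of letters in a window, not of bound sites.

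The windows below are those of the genes with the smallest p in the comparison of genotypes that hold an 8-base form, and they show how such letters are placed. Only bases before the annotated gene are given, 5′ to 3′ on the gene's strand, with the 7-base forms and their reverse complements (GCGGGAA and GCGCCAA) in capitals. They lie at chr1:128359706-128359875 (minus strand, Mcm6), chr8:95633389-95633558 (plus strand, Gins3) and chr8:75109339-75109467 (plus strand, Mcm5), all GRCm38. The window of Pola1, second by p, also held an 8-base form but lies mostly inside the annotated gene and is not shown.
Mcm6: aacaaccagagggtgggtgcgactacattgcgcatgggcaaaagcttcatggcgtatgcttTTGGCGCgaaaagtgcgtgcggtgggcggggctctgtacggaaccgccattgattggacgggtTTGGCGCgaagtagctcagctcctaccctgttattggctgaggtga
Gins3: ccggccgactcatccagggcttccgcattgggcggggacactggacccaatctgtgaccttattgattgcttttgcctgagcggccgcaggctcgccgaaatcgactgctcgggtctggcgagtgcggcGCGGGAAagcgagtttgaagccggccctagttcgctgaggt
Mcm5: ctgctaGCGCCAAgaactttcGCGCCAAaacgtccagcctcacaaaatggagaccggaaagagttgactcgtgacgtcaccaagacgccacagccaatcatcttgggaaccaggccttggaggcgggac
Counted from the start site, the 8-base forms began at -110 and -47 in Mcm6, at -41 in Gins3 and at -149 in Mcm5. Over their whole windows, Mcm6 and Gins3 each held CCAAT or its complement at 2 places as well, and Mcm5 at 3 (-77, -22 and 7). The annotated Mcm5 gene begins before the start site of its window, so the bases shown end short of that site. Of its CCAAT places they hold only the one at -77.

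Between the genotypes, the levels of these genes differed little, and most differences pointed the same way. The comparison was Dnmt3l-KO minus WT in edgeR's quasi-likelihood test over 14760 genes, with p-values adjusted by Benjamini and Hochberg and called under 0.05. Of the 43 genes, 0 passed, where 0.0203% of all genes did, and the adjusted p was 0.999 for each. At an unadjusted p under 0.05 there were 3 (Gmnn, Pola1 and Mcm6), all lower in Dnmt3l-KO, where 4.15% of all genes reached that level with 1.81% lower and 2.34% higher. DESeq2's Wald test, limma-voom and limma on FPKM values (fragments scaled by transcript length and library size) also called 0. The log2 fold change was below 0 in 38 of 43 genes, against 48.7% of all genes, with a median of -0.14, against 0.01 for all genes. It ran from -0.56 to 0.08, with a median standard error (SE) of 0.12, and 39 genes lay between -0.3 and 0.1.

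Both Dnmt3l-KO libraries lay below both WT libraries in 19 of the 43 genes, against 16.5% of all genes, and above them in 0, against 16.2%. On the deposited FPKM values the same separation held for 7 genes only (Gmnn, Mcm6, Cdc45, Gins3, Pola1, Prim2 and Pcna), against 10.4% of all genes, with 34 genes below 0 against 39.8%. The FPKM of WT replicate 1 was lower by a shift of -0.09 on the log2 scale, against its CPM, over all genes and over these 43 alike, while those of WT replicate 2 and Dnmt3l-KO replicate 2 were shifted by 0.04 and 0.05. The genes were chosen with results of these libraries known, so these counts are given as descriptions.

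**Figure D1:**
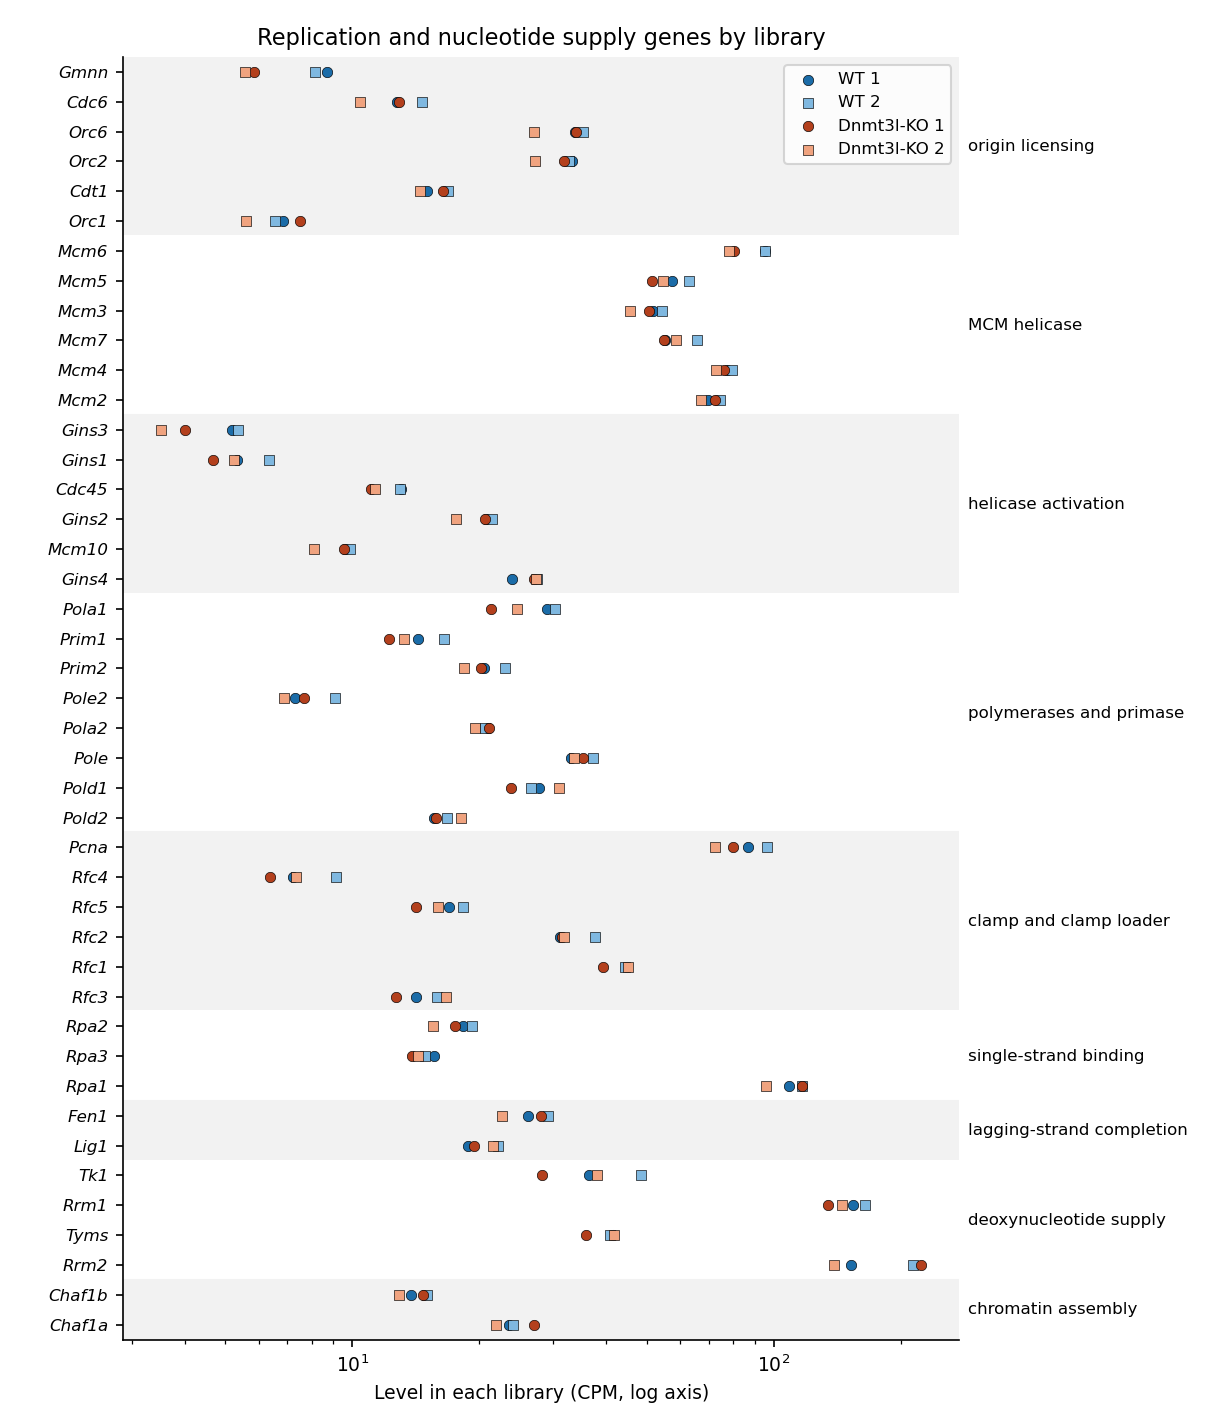
Level of each of the 43 genes in each library (CPM, log axis), with genes grouped by role and WT libraries in blue and Dnmt3l-KO libraries in red. In Gmnn, Mcm6, Gins3, Cdc45 and Pola1 both red points lie to the left of both blue points, and the points of Rrm2 run from 139 to 224 CPM with the genotypes interleaved.

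**Figure D2:**
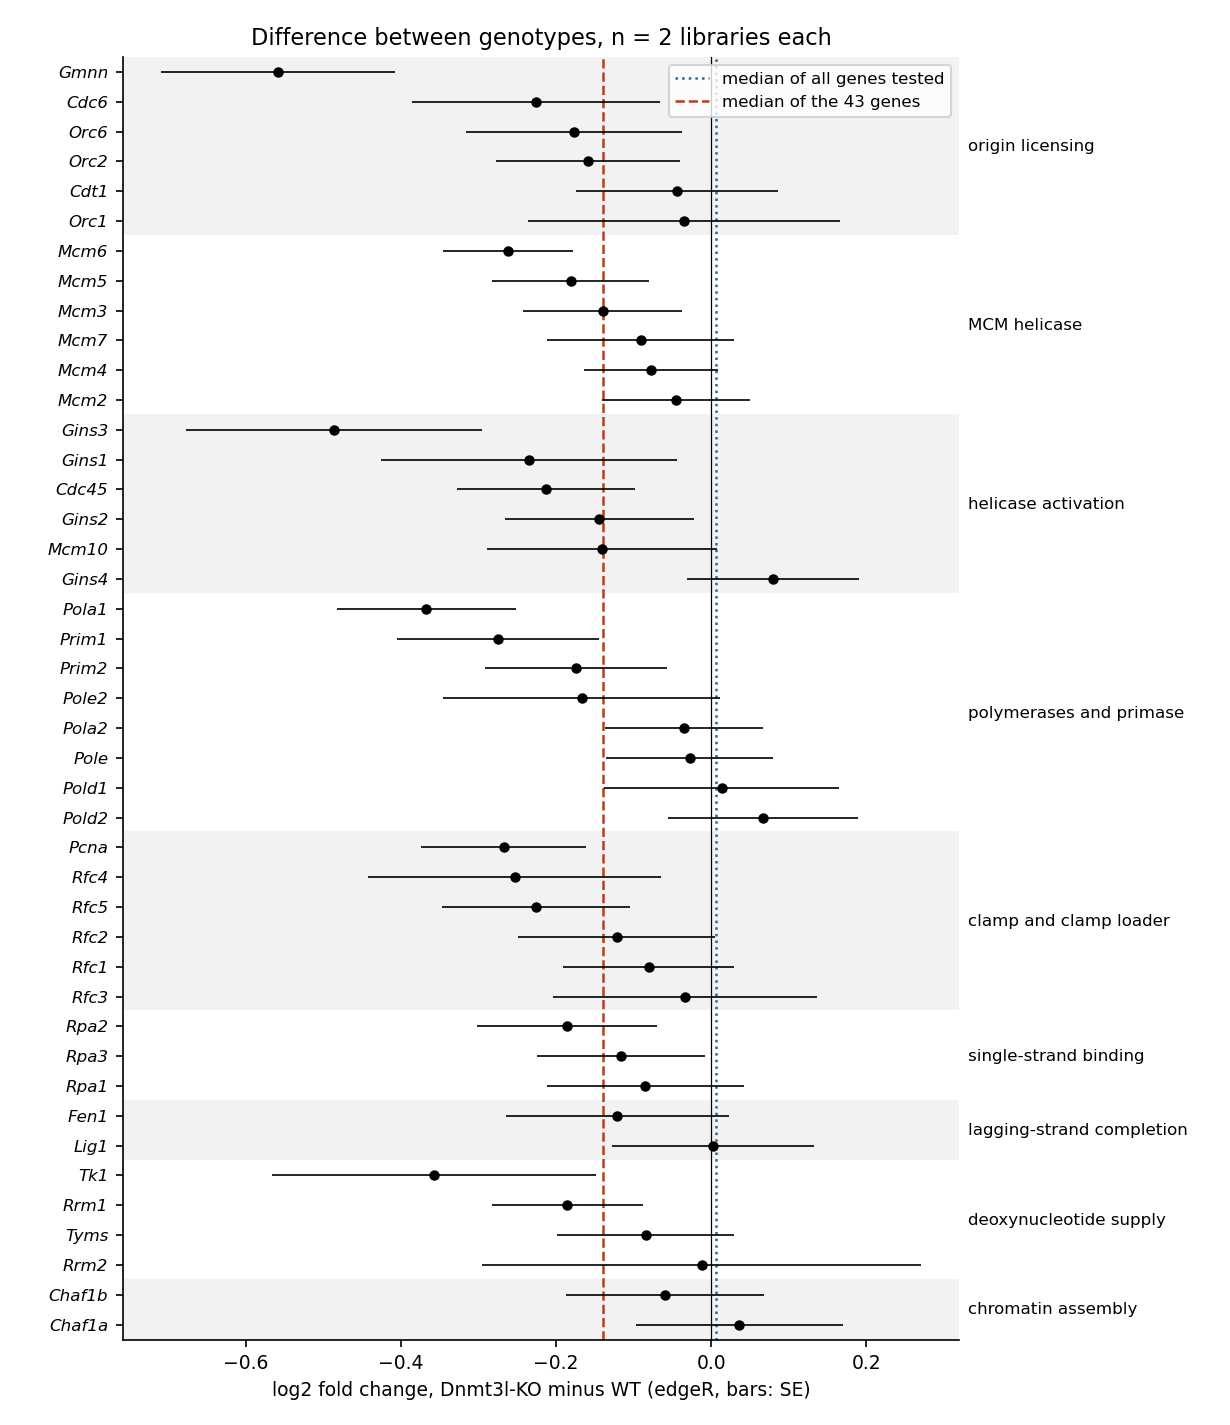
Log2 fold change of each gene, Dnmt3l-KO minus WT, with its SE (edgeR, 2 libraries per genotype), beside the median of the 43 genes (dashed) and of all genes tested (dotted). Gmnn lies furthest to the left at -0.56, and 5 genes lie right of 0.

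Among the genes of origin licensing, geminin stood out. Gmnn (chromosome 13, 24751845 to 24761937, GRCm38) had 8.68 and 8.15 CPM in WT, against 5.85 and 5.57 CPM in the knockout, so both knockout libraries lay below both WT libraries. Its mean was 8.42 ± 0.380 CPM in WT, against 5.71 ± 0.196 CPM in the knockout (SD, n = 2 each). The log2 fold change was -0.56 ± 0.15 (SE; unadjusted p of 0.0136, adjusted p of 0.999 in edgeR). That difference comes to 32.1% less, and it rests on 409 and 340 counts in WT against 292 and 233 in the knockout. Cdt1, the loading factor that geminin binds, had 15.0 and 16.9 CPM in WT, against 16.5 and 14.4 CPM in the knockout, with the genotypes overlapping.

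Of the other licensing genes, all but Orc2 overlapped between genotypes. Orc6, a subunit of the origin recognition complex and the licensing gene of highest FPKM, had 33.7 and 35.2 CPM in WT, against 33.9 and 27.0 CPM in the knockout (log2 fold change -0.18 ± 0.14, SE; adjusted p of 0.999 in edgeR). Its low value belongs to Dnmt3l-KO replicate 2 alone, and without that library the log2 fold change was -0.024, against -0.35 without Dnmt3l-KO replicate 1. Cdc6, the loader ATPase, showed the same order, with 12.7 and 14.6 CPM in WT, against 12.9 and 10.4 CPM in the knockout. Orc2 did not overlap, with 33.1 and 32.6 against 31.9 and 27.1 CPM, and it too was lowest in Dnmt3l-KO replicate 2. Orc1, the largest ATPase subunit of the complex, was highest in Dnmt3l-KO replicate 1 (7.49 CPM) and lowest in replicate 2 (5.60 CPM), on either side of 6.86 and 6.57 CPM in WT. All 6 licensing genes were lower in replicate 2 than in replicate 1 of Dnmt3l-KO, by a median of -0.27 on the log2 scale, while 3 of the 6 were so in WT.

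The 6 subunits of the MCM ring, which assemble in equal numbers, all had a log2 fold change below 0, from -0.26 to -0.05 (median -0.12). Mcm6 (chromosome 1, 128331575 to 128359705) had 95.2 and 95.0 CPM in WT, against 80.3 and 78.3 CPM in the knockout. The gap between genotypes was wide beside the spread within them, at a log2 fold change of -0.26 ± 0.08 (SE; unadjusted p of 0.026, adjusted p of 0.999 in edgeR). Mcm5 had 57.3 and 62.9 CPM in WT, against 51.3 and 54.7 CPM in the knockout. Mcm3 had 51.7 and 54.3 against 50.5 and 45.6 CPM, and Mcm4 had 77.3 and 79.6 against 76.0 and 72.7 CPM. These 3 also did not overlap, though by margins smaller than the differences between replicates. Mcm7 (55.1 and 65.6 against 54.9 and 58.5 CPM) and Mcm2 (69.8 and 74.5 against 72.6 and 67.2 CPM) overlapped.

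Per length, the 6 MCM transcripts stayed within a narrow range. Their mean FPKM over the 4 libraries was 27.4 for Mcm6, 22.3 for Mcm7, 19.4 for Mcm4, 19.2 for Mcm2, 16.0 for Mcm3 and 15.0 for Mcm5. The ratio of the highest to the lowest subunit was 1.97 and 1.79 in WT, against 1.85 and 1.71 in the knockout, with Mcm6 the highest in each. Neighbours in that order overlapped in their ranges over the libraries, except Mcm2 and Mcm3. Mcm10, a scaffold that helps fire the ring and is not part of it, had 11.2% to 12.9% of their mean FPKM in any library.

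Of the genes that activate the helicase, 5 of 6 had both Dnmt3l-KO libraries below both WT libraries, where 16.5% of all genes did. Gins3 (chromosome 8, 95633559 to 95645059), a GINS subunit, had 5.18 and 5.37 CPM in WT, against 4.01 and 3.52 CPM in the knockout. It had the second most negative log2 fold change of the 43 genes, on the lowest counts of the set (244 and 224 in WT, 200 and 147 in the knockout). Cdc45 had 13.0 and 12.9 CPM in WT, against 11.1 and 11.3 CPM in the knockout, with little spread within a genotype. Gins1 (5.33 and 6.33 against 4.67 and 5.24 CPM), Gins2 (20.8 and 21.5 against 20.6 and 17.6 CPM) and Mcm10 (9.62 and 9.87 against 9.56 and 8.11 CPM) were separated by less than their replicates differ. Gins4, the remaining GINS subunit, was the exception: it had 24.0 and 27.3 CPM in WT, against 27.0 and 27.2 CPM in the knockout, at a log2 fold change of 0.08 ± 0.11 (SE, adjusted p of 0.999 in edgeR). The GINS subunits act as a complex of 4 in equal numbers, yet their FPKM ran from 17.7 for Gins4 and 17.3 for Gins2 to 4.51 for Gins1 and 1.71 for Gins3.

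The catalytic subunit of polymerase alpha and the primase subunits, which begin each new strand, lay lower in both knockout libraries. Pola1 (chromosome X, 93304766 to 93632387) had 29.0 and 30.2 CPM in WT, against 21.3 and 24.6 CPM in the knockout, at a log2 fold change of -0.37 ± 0.12 (SE; unadjusted p of 0.0238, adjusted p of 0.999 in edgeR). Prim1, the catalytic primase subunit, had 14.3 and 16.5 against 12.2 and 13.3 CPM. Prim2, the large primase subunit and the polymerase gene of highest FPKM, had 20.5 and 23.0 against 20.2 and 18.4 CPM (log2 fold change -0.17 ± 0.12, SE; adjusted p of 0.999 in edgeR), and its log2 fold change was -0.090 when WT replicate 2 was left out and -0.11 when Dnmt3l-KO replicate 2 was. The 4th subunit of that complex, Pola2, did not follow, with 20.9 and 20.6 against 21.0 and 19.5 CPM.

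Polymerases delta and epsilon, which extend the lagging and leading strands, showed no such order. Pold1, the catalytic subunit of delta, had 27.7 and 26.6 CPM in WT, against 23.8 and 31.0 CPM in the knockout, so its 2 knockout libraries enclosed the WT values. Pold2 had 15.6 and 16.8 against 15.8 and 18.1 CPM. Pole, the catalytic subunit of epsilon, had 33.0 and 37.2 against 35.2 and 33.6 CPM, and Pole2 had 7.30 and 9.08 against 7.69 and 6.89 CPM.

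Pcna (chromosome 2, 132249286 to 132253180), the sliding clamp, had 86.9 and 96.5 CPM in WT, against 80.0 and 72.3 CPM in the knockout. Its log2 fold change was -0.27 ± 0.11 (SE), with an unadjusted p of 0.0527 and an adjusted p of 0.999 in edgeR, and its genotypes did not overlap. Of the RFC subunits that load it, Rfc5 was also separated (16.9 and 18.3 against 14.2 and 16.0 CPM). Rfc4 (7.22 and 9.15 against 6.39 and 7.34 CPM) and Rfc2 (31.1 and 37.7 against 31.4 and 31.9 CPM) were each highest in WT replicate 2. Rfc1, the large subunit (44.8 and 44.5 against 39.2 and 45.2 CPM), and Rfc3 (14.1 and 15.9 against 12.7 and 16.6 CPM) were lowest in Dnmt3l-KO replicate 1 and highest in Dnmt3l-KO replicate 2.

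Replication protein A coats single-stranded DNA as a trimer. Rpa2 (18.3 and 19.3 against 17.5 and 15.5 CPM) and Rpa3 (15.6 and 14.9 against 13.9 and 14.3 CPM) were lower in both knockout libraries. Rpa1, the large subunit, had 108 and 117 CPM in WT, against 117 and 95.8 CPM in the knockout (log2 fold change -0.08 ± 0.13, SE; adjusted p of 0.999 in edgeR), where replicate 2 alone was low. The genes that finish the lagging strand and rebuild chromatin overlapped between genotypes. Fen1, the flap endonuclease, had 26.1 and 29.1 against 28.1 and 22.6 CPM (log2 fold change -0.12 ± 0.14, SE; adjusted p of 0.999 in edgeR), and Lig1, the DNA ligase, had 18.8 and 22.2 against 19.5 and 21.6 CPM. Chaf1b, of the histone chaperone that assembles nucleosomes behind the fork, had 13.8 and 15.0 against 14.7 and 12.9 CPM (log2 fold change -0.06 ± 0.13, SE; adjusted p of 0.999 in edgeR), and its partner Chaf1a 23.6 and 24.0 against 26.9 and 21.9 CPM.

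Of the 43 genes, Tk1 and Rrm2 had the widest ranges over the 4 libraries, while the other deoxynucleotide genes, Rrm1 and Tyms, varied less than the median gene. Ribonucleotide reductase makes deoxynucleotides from ribonucleotides with a large subunit, Rrm1, and a small subunit of S phase, Rrm2. Rrm2 had 152 and 214 CPM in WT, against 224 and 139 CPM in the knockout, a 1.61-fold range, where the median gene of the set spanned 1.23-fold. Its high libraries were WT replicate 2 and Dnmt3l-KO replicate 1, so the log2 fold change of -0.01 ± 0.28 (SE, adjusted p of 0.999 in edgeR) sums 2 opposite differences. Rrm1 did not share that pattern, with 154 and 164 CPM in WT, against 135 and 145.0 CPM in the knockout. The ratio of Rrm2 to Rrm1 in FPKM was therefore 1.8 and 2.37 in WT, against 3.02 and 1.74 in the knockout.

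Tk1, the thymidine kinase of the salvage pathway, spanned 1.71-fold and was higher in replicate 2 of each genotype, with 36.5 and 48.3 CPM in WT, against 28.2 and 38.0 CPM in the knockout. Within each replicate number the knockout value lay below the WT value, but the genotypes overlapped and nothing in the labels pairs libraries by that number. Tyms, which makes thymidylate, had 41.6 and 40.8 against 35.9 and 41.9 CPM, with Dnmt3l-KO replicate 1 alone low.

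**Figure D3:**
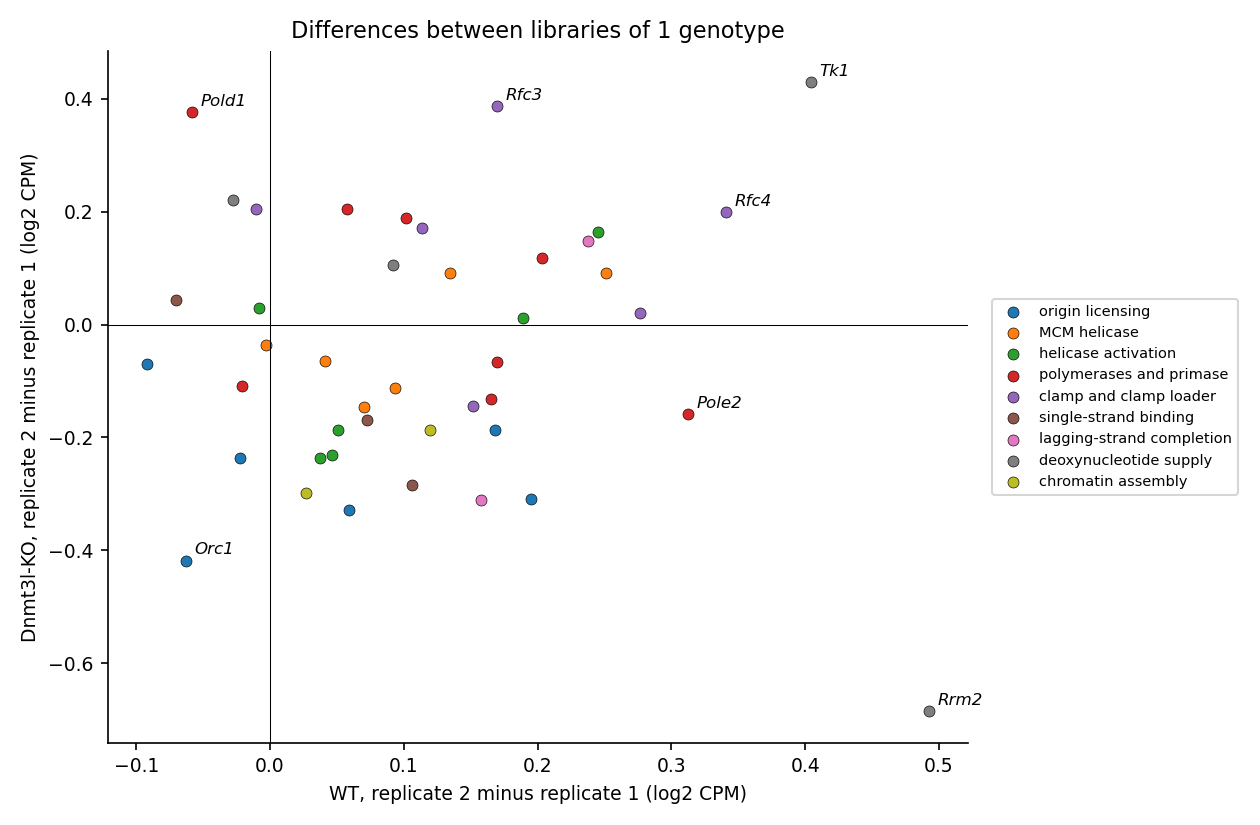
Difference between the libraries of 1 genotype for each gene (log2 CPM, replicate 2 minus replicate 1), WT across and Dnmt3l-KO upward, coloured by role. Rrm2 lies furthest from the origin at 0.49 and -0.69, Tk1 lies high on both axes at 0.40 and 0.43, and the licensing genes lie below the horizontal line.

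Replicates of a genotype differed about as much as the genotypes. In WT, 33 of 43 genes were higher in replicate 2, by a median of 0.10 on the log2 scale, and in Dnmt3l-KO 19 of 43 were, at a median of -0.07. The WT replicate 2 library held the highest level of 29 genes and the lowest of 0, and Dnmt3l-KO replicate 2 held the lowest level of 23. Against the WT mean, the 43 genes had medians of -0.10 in Dnmt3l-KO replicate 1 and -0.15 in Dnmt3l-KO replicate 2. Both knockout libraries lay below the WT mean in 26 genes, above it in 1 (Gins4), and on opposite sides in 16. Without WT replicate 2 the median log2 fold change was -0.09 with 31 genes below 0, and without WT replicate 1 it was -0.20 with 40. Without either one of the WT libraries 0 genes were at an unadjusted p under 0.05, and without Dnmt3l-KO replicate 1 or 2 there were 7 and 5, with 0 called in edgeR in each case. Over all genes, 1.31% and 1.46% were at that level without WT replicate 1 or 2, and 12.0% and 13.3% without Dnmt3l-KO replicate 1 or 2.

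Levels per length spanned 44.4-fold over the set. Rrm2 led with a mean of 75.7 FPKM, followed by Pcna at 60.8, Rrm1 at 34.1, Rpa1 at 32.6 and Mcm6 at 27.4 FPKM. Orc1 at 2.0 and Gins3 at 1.71 FPKM stood last, after Mcm10 at 2.40 and Cdc6 at 3.94 FPKM. Of the 42 neighbouring pairs in that order, 39 overlapped in their ranges over the 4 libraries. The steps that did not were those below Pcna, below Mcm5 (15.0 FPKM, with Rfc3 next at 11.3) and below Cdc6.

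**Figure D4:**
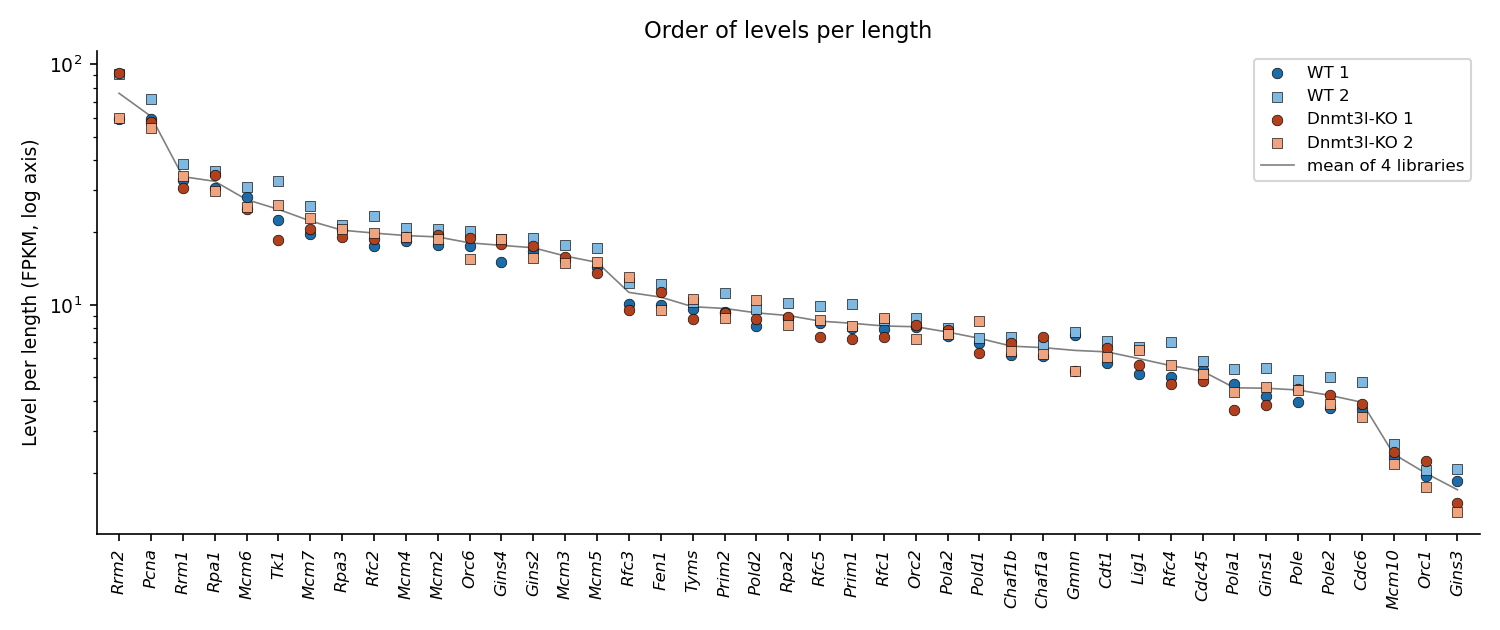
Level per length of each gene in each library (FPKM, log axis), in order of the mean of the 4 libraries (line). Levels run from 75.7 FPKM for Rrm2 to 1.71 for Gins3, with clear steps below Pcna, Mcm5 and Cdc6.

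Of the 43 genes, 18 had 1 transcript in the table and 25 had several, up to 9 for Prim2. In 19 of those 25, the leading transcript took at least 70% of the gene's counts in every library. Fen1 was the most divided, with 7 transcripts, of which the leading one took 38.1% and 34.7% in WT and 32.5% and 31.1% in Dnmt3l-KO. Mcm5, chosen after its values were seen, had its transcript variant 2 at 20.8% and 18.2% of its counts in WT, against 30.2% and 27.2% in the knockout. The adjusted p of this variant in the authors' deposited table was 0.9997. Among genes with several transcripts, 40 transcripts had at least 400 counts in all. Of these, 10 took a larger share in both knockout libraries than in both WT libraries, and 6 a smaller one. The same count was not made over all transcripts, so these numbers have no background and are not read as shifts. How reads were divided between overlapping transcripts could not be examined, so the shares themselves are uncertain. In the authors' deposited table, 70 transcripts of these genes had an adjusted p and 0 of them were under 0.05, against 124 of 28097 over the whole table. The leading transcripts had a log2 fold change below 0 in 37 of 43 genes in the authors' deposited table, with a median of -0.12, and the smallest p was that of Mcm5 variant 1 (-0.32, p-value of 0.104 in the authors' deposited table).

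The rest of the pathway was described by lists of other genes. Of 35 further replication genes, such as the remaining origin recognition subunits, the kinase genes Cdc7 and Dbf4 and the fork protection genes Timeless and Clspn, 33 had a log2 fold change below 0 (median -0.16). Both knockout libraries lay below both WT libraries in 18 of them, against 16.5% of all genes, 0 passed in edgeR, and 0 had an unadjusted p under 0.05. Of 22 further genes of nucleotide synthesis 15 were below 0 (median -0.11), with 0 called in edgeR. Nme2, a nucleoside diphosphate kinase, had 1032 and 1040 against 853 and 772 CPM, so its genotypes did not overlap (log2 fold change -0.35 ± 0.11, SE; adjusted p of 0.999 in edgeR). Both knockout libraries lay below both WT libraries in 8 of the 22 (36.4%, against 16.5% of all genes), and above them in 2 (9.09%, against 16.2%). By its median the list was low in Dnmt3l-KO replicate 2 alone, at 0.02 and -0.21 in the knockout libraries against the WT mean.

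Genes that control entry into S phase showed no common direction. Of 27 such genes 12 were below 0, at a median of 0.01, with 0 called in edgeR. They include both activators and inhibitors of that entry, so this median does not measure it. The 1 gene at an unadjusted p under 0.05 was E2f1, an activator of replication genes, with 20.2 and 22.0 CPM in WT, against 28.6 and 24.9 CPM in the knockout (log2 fold change 0.34 ± 0.12, SE; adjusted p of 0.999 in edgeR). Over all genes, 4.15% reached an unadjusted p under 0.05 in edgeR. E2f1 was 1 of 3 genes of this list higher in both knockout libraries than in both WT libraries (11.1%, against 16.2% of all genes). Another 4 were lower in both (14.8%, against 16.5%), and no gene of the replication set was higher in both.

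Mitosis and histone genes differed more between replicates, by their medians, than the replication genes did. The 20 mitosis genes had medians of -0.41 and 0.08 in the Dnmt3l-KO libraries against the WT mean, 17 were below 0 in the comparison, and all 20 were higher in replicate 2 than in replicate 1 in each genotype. Replication-dependent histone genes were taken by the symbols Hist1h to Hist4h, which also take in the pseudogene Hist3h2bb-ps. Of the 65 tested, 60 were below 0, with medians of -0.55 and -0.17 in the knockout libraries. In edgeR 0 passed and 17 were lower at an unadjusted p under 0.05, where 1.81% of all genes were. They were led by Hist1h2ad, Hist1h3h, Hist1h2bb and Hist1h2bg. Their log2 fold changes were -1.37 ± 0.13, -1.04 ± 0.16, -0.85 ± 0.14 and -0.46 ± 0.10 (SE), with adjusted p of 0.245, 0.966, 0.966 and 0.999 in edgeR. Hist3h2bb-ps (0.080 to 0.85 CPM) and Hist1h4n (0.048 to 1.74 CPM), also among the 17, had low levels. How reads were divided between histone genes of similar sequence was not examined. The replication set differed in order from both lists, with medians of -0.10 in Dnmt3l-KO replicate 1 and -0.15 in Dnmt3l-KO replicate 2. The further replication genes did not, with medians of -0.20 and -0.13 in these libraries. Within the replication set, the clamp and clamp loader genes and the deoxynucleotide genes also had the lower median in Dnmt3l-KO replicate 1. The other roles had it in Dnmt3l-KO replicate 2. Fibroblast markers had medians of -0.38 and 0.55 in the knockout libraries. The part that the cell cycle state or the cell mixture of a library had in the replication genes' values was not tested.

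**Figure D5:**
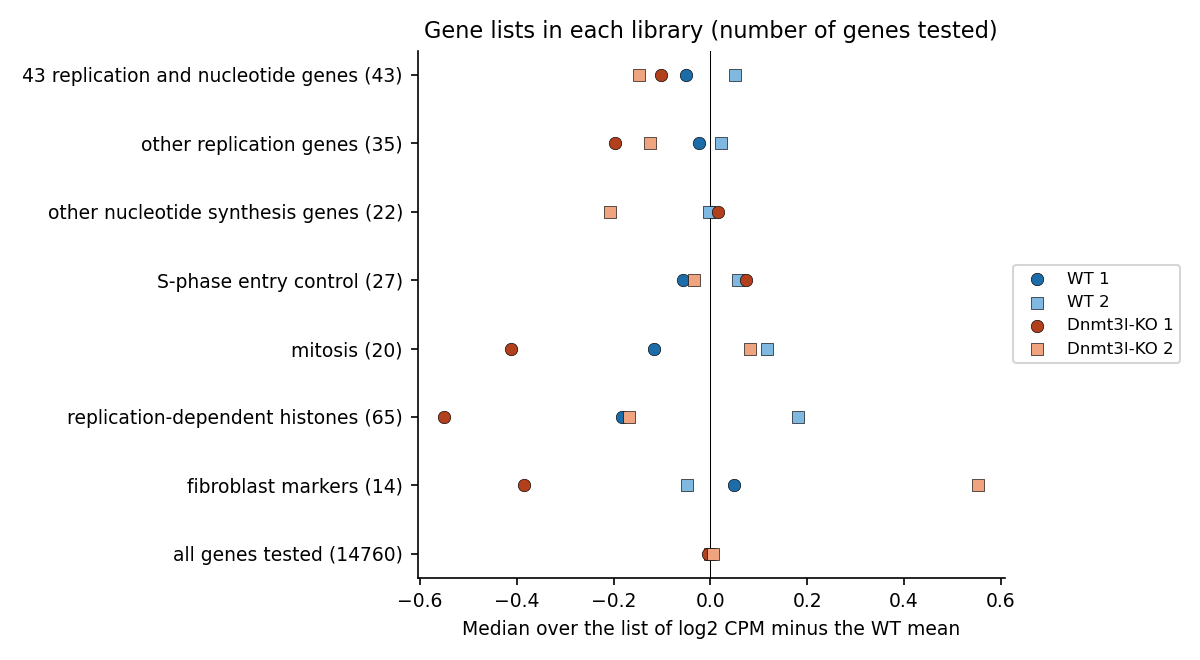
Median over each gene list of log2 CPM minus the WT mean, in each library, with the number of genes tested in brackets. The 43 genes lie at -0.10 and -0.15 in the Dnmt3l-KO libraries, a narrower spread than that of mitosis genes (-0.41 and 0.08) or fibroblast markers (-0.38 and 0.55).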

How the data were processed

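RNA of 4 MEF libraries was depleted of ribosomal RNA, primed at random and amplified over 12 PCR cycles, per the labels' protocols. The submitters' processing notes name mm10 (GRCm38), DESeq2 1.8.0, eXpress 1.4.1, Cufflinks 2.2.1 and TopHat2 2.0.12, with no role given for any. Per the file headers, the deposited table gives an estimated count and an FPKM value per RefSeq transcript and library. It also gives the authors' own comparison: a mean signal, log2 fold change, standard error, test score and p-value. The estimated counts, deposited as whole numbers, were summed per symbol.

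Counts were tested with edgeR 4.0.16 in R 4.3.3 (TMM, filterByExpr, robust quasi-likelihood F-test) over 14760 genes. SE values derive from the F statistic. CPM use TMM library sizes, and log2 CPM a prior count of 2. Replicate libraries differed beyond counting noise (chi-square over degrees of freedom of 31.0 in WT and 92.5 in Dnmt3l-KO). The test was also run on simulated counts, in which each planted change was larger than any seen in the 43 genes. That run therefore says nothing about differences of their size. Alternatives used DESeq2 1.42.0 and limma 3.58.1. On FPKM, 12288 genes with a mean of at least 0.5 were kept, as log2 of FPKM plus 1 or 0.1. The 43 genes, the other lists and the rules were chosen with earlier results of these data known. All 43 genes are named; fold changes with SE are given for those at an unadjusted p under 0.05 and for that of highest FPKM in each role, and for other lists up to 4 genes at an unadjusted p under 0.05. One gene of the other lists is not reported here. Protein sequences were not used here.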

Additional observations from a re-analysis of the deposited data

How the results depend on the processing

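In 16 alternatives (other scaling factors, DESeq2, limma-voom, limma on FPKM, other filters, a replicate block, Rn45s left out, and each library left out), 0 of the 43 genes passed. Among the 11 genes given with a fold change, 166 of 176 values kept their direction, and 34 of the 43 genes were below 0 in each alternative that kept all libraries and 24 in all 16. The median log2 fold change was -0.076 on log2(FPKM + 1), with or without a filter on low values. The median over all genes was 0.034 with that filter and 0.0047 without it. On log2(FPKM + 0.1) the 43 genes had a median of -0.098, beside 0.039 over all genes. With 1 library left out, the median of the 43 genes ran from -0.20 to -0.090. The genes lower in both knockout libraries numbered 7 on each FPKM scale, and 19 to 34 with 1 library left out, where fewer libraries make separation easier (34 without WT replicate 1, where 29.2% of all genes were so, and 31 without Dnmt3l-KO replicate 1, where 37.2% were). Over all genes, the calls were 31 in DESeq2, 7 on log2(FPKM + 1), 7 on log2(FPKM + 0.1), 1 on unfiltered FPKM, 8 in edgeR without a filter, and 2 to 6 with 1 library left out, against 3; the cause was not tested. Rrm2 turned to 0.011 on each FPKM scale. With 1 library left out it ran from -0.40 to 0.29, Chaf1b from -0.16 to 0.030, Fen1 from -0.29 to 0.025, Gins4 from -0.014 to 0.18 and Rpa1 from -0.24 to 0.049, while Orc6 ran from -0.35 to -0.024 and Prim2 from -0.26 to -0.090 with no change of sign. With the replicate number as a block, the median was -0.14, 38 genes were below 0, 0 were called and 4 had an unadjusted p under 0.05, and 4 genes were called over all; across all genes the replicate differences of the genotypes correlated at 0.10 (Pearson), and nothing in the labels says that the numbers pair the libraries. Lone libraries were assumed to vary like the other group. The median SE was 0.12 on the log2 scale, beside a median difference of -0.14.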
